A study of Homo sapiens with 5 samples.

Results

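Carbonic anhydrases and bicarbonate transporters of the SLC4 family were examined in NCI-H209 cells, a line of human small-cell lung cancer (SCLC), after co-culture with human brain microvascular endothelial cells (HBMECs). The 8 genes were CA2, CA8, CA9, CA11, CA12, CA13, SLC4A2 and SLC4A7, taken by symbol from the 64837 entries of the count files. Of these symbols, 7 stood in the authors' table of genes, and CA2 was matched through the gene annotation. The filter on low counts was passed by 7 genes, and CA2 was not tested. All 8 genes had a single entry each.

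Carbonic anhydrases are zinc enzymes that interconvert carbon dioxide and water with bicarbonate and a proton. Cells that produce much carbon dioxide and lactic acid use the extracellular enzymes together with bicarbonate transporters, sodium-proton exchangers and lactate transporters to keep the cytosol near neutral while the medium becomes acid. CA9 and CA12 are membrane enzymes with the catalytic domain outside the cell, and CA9 is a classical target of the hypoxia-inducible factors. CA2 and CA13 are cytosolic enzymes. CA8 and CA11 are carbonic anhydrase-related proteins that lack catalytic activity. SLC4A7 is a sodium-bicarbonate cotransporter that loads the cell with base, and SLC4A2 exchanges chloride for bicarbonate and thereby loads it with acid.

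CA9 lies on the plus strand of chromosome 9, from 35673856 to 35681159 of GRCh38. The 150 bases before its start in RefSeq, chr9:35673778-35673927 of GRCh38.p14, are shown because CA9 was the member with a fold change above the study's threshold, and because its promoter is known to hold a hypoxia response element close to the start. The capitals mark the reverse complement of ACGTG, the core of that element, which is the only match to ACGTG or GCGTG on either strand in its 300-base window and begins 18 bases before the start. The start of CA9 in the annotation used for counting is 72 bases further upstream, so that the match lies within the annotated first exon there.
CA9 promoter: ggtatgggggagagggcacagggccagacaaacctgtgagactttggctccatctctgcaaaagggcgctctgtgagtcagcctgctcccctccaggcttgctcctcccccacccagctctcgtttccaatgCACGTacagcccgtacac

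ACGTG was present on either strand in 21.4% of 35116 RefSeq promoter windows of 300 bases, GCGTG in 36.5% and either of them in 48.4%. Promoter windows of RefSeq were matched for 4 of the 8 genes, CA9, CA12, SLC4A2 and SLC4A7, while CA2, CA8, CA11 and CA13 were not matched. The window of CA12 held 2 matches to GCGTG and 0 to ACGTG. The 2 windows of SLC4A7 held 0 matches to ACGTG and from 0 to 3 matches to GCGTG. The 4 windows of SLC4A2, which overlap in part, held from 2 to 8 matches, with a palindromic site counted on both strands. A match describes the letters in the window and not a bound site.

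RNA-Seq libraries came from 3 control cultures of NCI-H209, grown in RPMI-1640 medium with fetal bovine serum, and from 2 cultures that shared medium with HBMECs for 24 h across the membrane of a trans-well chamber. Both groups are of the same established line, and the labels do not say whether the replicates are separate cultures prepared at different times, so the p-values measure the spread between these samples. The deposited values were reads per gene on the strand of the directional library, from 15457071 to 19157348 per library. Levels are given in CPM, a gene's counts per 1000000 of the library, whose size was corrected with TMM factors. The quasi-likelihood test of edgeR was applied to all 20360 genes that passed the filter, its p-values were adjusted after Benjamini and Hochberg, and genes with an adjusted p under 0.05 were called. The difference between the groups is written log2FC, the log2 fold change with co-culture in the numerator, with its standard error as SE and its 95% confidence interval as CI. Of 10 neuroendocrine markers, 9 had more than 3 counts in every library, and CHGA had at most 1. Their summed level was 2010 to 2538 CPM in control and 2688 and 2771 CPM in co-cultured cells. The 15 endothelial markers summed to 9.57 to 19.4 CPM in control and to 13.0 and 13.1 CPM in co-cultured libraries, with PLVAP and MMRN1 at 0 counts in every library. Of the 8 endothelial markers tested, ESAM alone was called, with 3 to 6 counts in control against 21 and 14 after co-culture (log2FC 2.14). The share of unmapped reads was 8.13% to 8.48% in control against 16.8% and 15.9% after co-culture, and the share of reads in no annotated exon on the counted strand was 47.3% to 51.2% against 40.1% and 40.8%. The part of either share in the results was not tested.

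CA9 was upregulated in the co-cultured cells, SLC4A7 and CA8 rose by a smaller factor, and no member was called lower. The number called higher was 3 of the 7 genes tested, where 18.4% of all genes tested were called higher and 15.0% lower. edgeR also gave 0 members lower at an unadjusted p under 0.05, and DESeq2 called 3 higher and 0 lower. The study's threshold for differentially expressed genes (DEGs), taken as a log2FC beyond 1 in size and an unadjusted p below 0.05, was met by 1 member, CA9, which was upregulated, and by 5.44% of all genes in that direction. The median log2FC of the 7 genes was 0.33 and that of all genes tested was -0.03. The members were chosen with earlier results of these data known, so these comparisons are a description. Both co-cultured libraries lay above all control libraries for 4 of the 7 genes, CA9, SLC4A7, CA8 and CA13, where 29.4% of all genes did so. Without co-cultured replicate 1 no member was called, and without co-cultured replicate 2 CA9 was the 1 called. With either of these libraries left out, the calls over all genes also fell, to 1749 and 1910 higher.

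**Figure D1:**
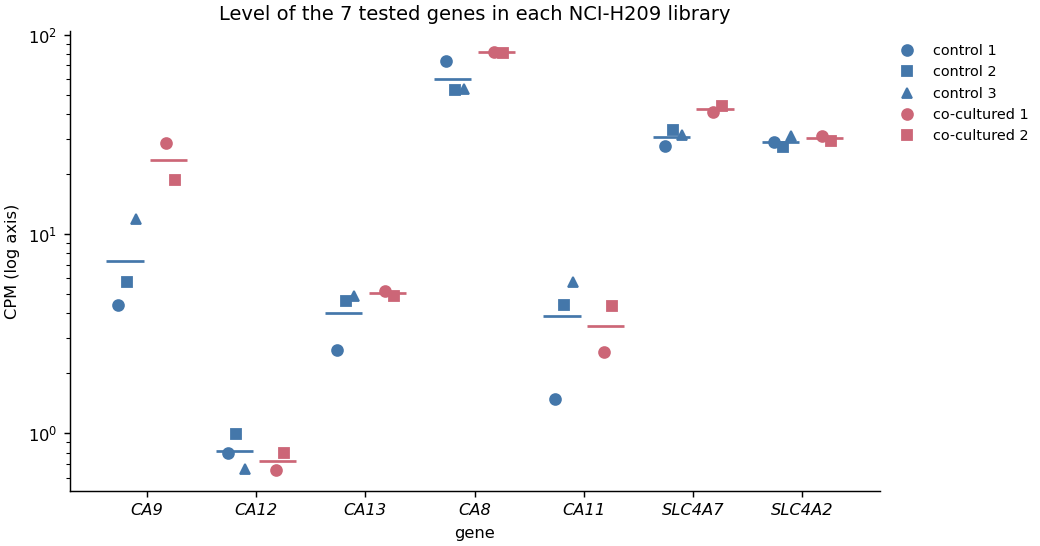
The plot shows the level in CPM on a log axis of the 7 tested genes in each library, with points for single libraries (circle, square and triangle for replicates 1, 2 and 3), lines for the group means, control in blue and co-cultured in red. CA9 ran from 4.41 to 11.9 CPM in control and was 28.7 and 18.6 CPM in co-cultured cells, while the points of CA11, CA12 and SLC4A2 overlapped between the groups.

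Of the membrane enzymes, CA9 had 83, 104 and 232 counts in control against 525 and 281 after co-culture. Scaled to library size, its control levels were 4.41, 5.75 and 11.9 CPM and its co-cultured levels 28.7 and 18.6 CPM. The control libraries differed among themselves by 2.69-fold, with control replicate 3 highest, and both co-cultured libraries lay above it. Control cultures averaged 7.35 ± 3.98 CPM (SD, n = 3) and co-cultures averaged 23.6 ± 7.16 CPM (SD, n = 2). CA9 rose 3.21-fold by the fit (log2FC 1.68, SE 0.34, 95% CI 0.91 to 2.46, adjusted p = 0.00553 with edgeR). With a library left out, its log2FC was lowest without co-cultured replicate 1, at 1.34 (adjusted p = 0.0861), and highest without control replicate 3, at 2.23. In bulk RNA, more cells that express CA9 and more CA9 RNA per cell cannot be told apart.

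CA9 shares 643 bases of exon, 38.5% of its exon length, with ARHGEF39, a gene on the opposite strand. When strand is ignored, reads in the shared exons are assigned to neither gene, so the reads of CA9 could be divided into those outside the shared exons and those counted with strand alone. Outside the shared exons CA9 had 2.18, 3.10 and 6.81 CPM in control against 17.8 and 10.8 CPM after co-culture. The reads counted only with strand came to 2.23, 2.65 and 5.07 CPM and then to 10.9 and 7.73 CPM. Both sets of reads were higher in each co-cultured library than in any control library, by 3.55-fold and 2.81-fold between the group means. ARHGEF39 itself fell, from 28.8 to 33.8 CPM in control to 18.3 and 21.3 CPM after co-culture (log2FC -0.69, adjusted p = 0.00244 with edgeR). Reads on the strand opposite to CA9 numbered at most 2 per library.

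**Figure D2:**
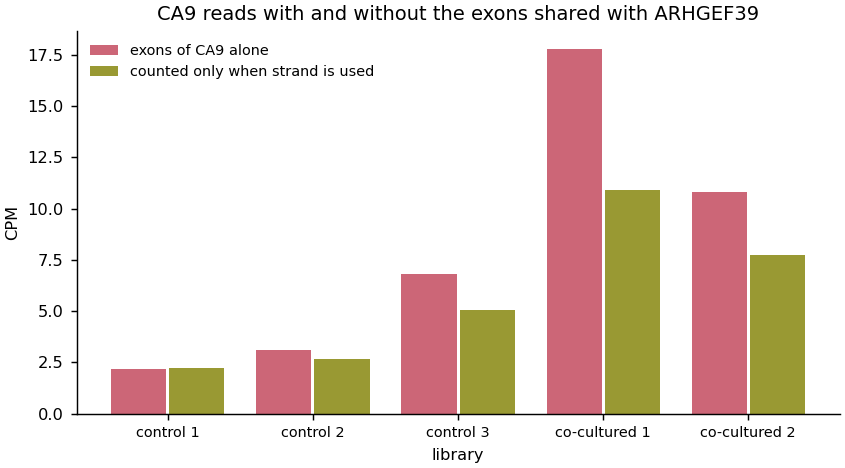
Bars give the CPM of CA9 in each library, in red for reads in exons of CA9 alone and in olive for reads counted only when strand is used, which lie in exons shared with ARHGEF39. Red bars ran from 2.18 to 6.81 CPM in control and were 17.8 and 10.8 CPM in the co-cultured libraries, and the olive bars followed the same order of libraries.

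CA12, the other membrane enzyme with an extracellular domain, had few reads. It had 15, 18 and 13 counts in control against 12 and 12 after co-culture, or 0.798, 0.995 and 0.666 CPM against 0.656 and 0.793 CPM. The groups overlapped, and the log2FC was -0.18 (95% CI -1.06 to 0.70, adjusted p = 0.753). The interval runs from 0.481-fold to 1.62-fold. CA12 lies on chromosome 15 from 63321378 to 63382161, on the minus strand.

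The cytosolic enzymes CA2 and CA13 lie on chromosome 8. CA2, from 85463852 to 85481493, had 1 count in control replicate 1 and 0 counts in the other libraries, under the floor of 3 counts, which corresponds to 0.154 to 0.198 CPM per library. No fold change can be given for it. CA13, from 85220587 to 85284073, had 2.61, 4.59 and 4.86 CPM in control against 5.19 and 4.89 CPM after co-culture. Control replicate 1 was low and the other control libraries lay close to the co-cultured ones. CA13 was not called (log2FC 0.33, SE 0.27, 95% CI -0.27 to 0.93, adjusted p = 0.376), and without control replicate 1 its log2FC was 0.10.

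Among the proteins without catalytic activity, CA8 was the member with the highest count. CA8 binds the inositol trisphosphate receptor and is known from Purkinje cells of the cerebellum. It had 73.9, 52.6 and 53.5 CPM in control against 81.7 and 81.2 CPM after co-culture. Control replicate 1 was the highest of the controls and still below both co-cultured libraries. Its mean was 60.0 ± 12.0 CPM (SD, n = 3) without and 81.5 ± 0.288 CPM (SD, n = 2) with HBMECs. CA8 rose 1.36-fold by the fit (log2FC 0.44, SE 0.14, 95% CI 0.13 to 0.75, adjusted p = 0.0358 with edgeR). The call was lost when any library but control replicate 1 was left out, with adjusted p-values from 0.0900 to 0.166. CA8 spans 60187347 to 60281412 on chromosome 8.

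CA11, a secreted-type related protein expressed mainly in brain, was the member that varied most among the controls. It had 1.49, 4.42 and 5.73 CPM in control against 2.57 and 4.36 CPM after co-culture, a spread of 3.85-fold within the control group that took in both co-cultured values. The log2FC was -0.18 (SE 0.47, 95% CI -1.24 to 0.88, adjusted p = 0.797), and its sign turned without control replicate 3, to 0.22, and without co-cultured replicate 1, to 0.17. CA11 lies on chromosome 19 from 48637942 to 48646312. From 9.62% to 22.2% of its reads on either strand were on the opposite strand, where it shares 74 bases of exon with the pseudogene SEC1P, compared with at most 1.33% in CA8, CA9, CA13 and SLC4A7, 2.43% to 4.47% in SLC4A2 and from 0 to 14.3% of the few reads of CA12.

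Of the bicarbonate transporters, SLC4A7 rose and SLC4A2 was not called. SLC4A7, on chromosome 3 from 27372721 to 27484420, had 27.6, 33.2 and 31.4 CPM in control against 40.7 and 43.6 CPM after co-culture. Each co-cultured library was above every control library. SLC4A7 rose 1.37-fold by the fit (log2FC 0.45, SE 0.10, 95% CI 0.22 to 0.69, adjusted p = 0.00888 with edgeR). Without co-cultured replicate 1 or 2 the log2FC was 0.51 or 0.41, with adjusted p-values of 0.0582 and 0.0989. SLC4A2, on chromosome 7 from 151057210 to 151076527, had 28.9, 27.2 and 30.8 CPM in control against 30.9 and 29.3 CPM after co-culture. The values of SLC4A2 overlapped, with a log2FC of 0.06 (95% CI -0.16 to 0.28, adjusted p = 0.688) that was -0.021 under upper-quartile normalization.

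**Figure D3:**
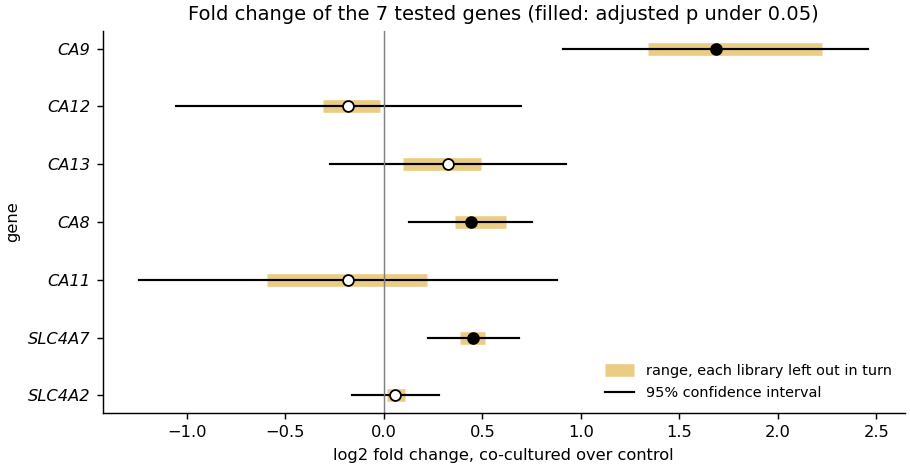
Points give the log2FC of co-culture against control for the 7 tested genes, filled where the adjusted p was under 0.05, with the 95% confidence interval as a line and the range over leaving out each library in turn as a yellow band. The intervals of CA9, CA8 and SLC4A7 lie above 0, and that of CA9 begins at 0.91.

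Levels of different genes were compared as CPM per kb of exon. In control cells CA8 was the highest, at 10.4 ± 2.08 CPM per kb (SD, n = 3). CA9, SLC4A2 and SLC4A7 followed at 4.40 ± 2.38, 3.82 ± 0.239 and 3.20 ± 0.296 CPM per kb (SD, n = 3), and CA9 did not differ from either transporter beyond its spread. CA11 came next at 1.87 ± 1.05 CPM per kb, then CA13 at 0.727 ± 0.223 and CA12 at 0.112 ± 0.0227 CPM per kb (SD, n = 3). In co-cultured cells CA9 was at the level of CA8, with 14.1 ± 4.29 and 14.1 ± 0.0497 CPM per kb (SD, n = 2). Per kb, the order of the transporters was exchanged. SLC4A7 was below SLC4A2 in each control library, with a ratio per kb of 0.756, 0.964 and 0.804, and above it in each co-cultured library, with a ratio of 1.04 and 1.17. The ratio averaged 0.841 ± 0.109 (SD, n = 3) in control cultures and 1.11 ± 0.0950 (SD, n = 2) in co-cultures. The exchange depends on the exon lengths. In CPM, SLC4A7 was below SLC4A2 in control replicate 1 alone, at 27.6 against 28.9 CPM, and above it in every other library.

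The 15 carbonic anhydrase genes together reached 20.6 ± 2.31 CPM per kb (SD, n = 3) in control cultures, against 34.5 ± 3.93 CPM per kb (SD, n = 2) in co-cultures. The sum includes CA8 and CA11, which lack catalytic activity, so a share of this sum is not a share of active enzymes. CA9 made up 13.4%, 18.3% and 30.7% of this sum in control, against 46.1% and 35.0% after co-culture. CA8 made up 64.7%, 48.3% and 39.9% in control against 37.9% and 44.3% after co-culture. The share of CA9 was thus above every control library in both co-cultures, while that of CA8 overlapped. CA5B, a mitochondrial enzyme, held 12.1% to 15.3% of the sum in control and 9.62% and 10.3% in co-cultured cells, and CA12 held at most 0.723% in any library.

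**Figure D4:**
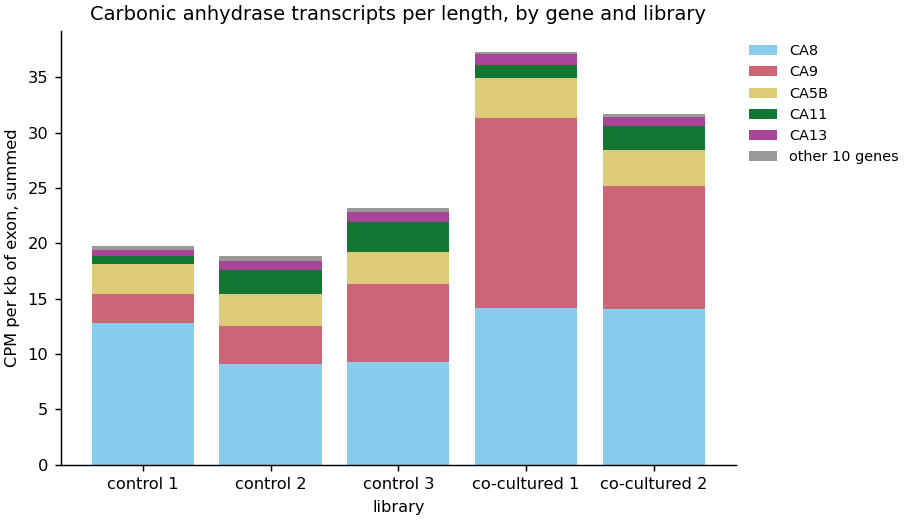
Stacked bars give the CPM per kb of exon of the carbonic anhydrase genes in each library, with CA8, CA9, CA5B, CA11 and CA13 in separate colors and the other 10 genes in grey. The sum was 18.8 to 23.2 CPM per kb in control and 37.3 and 31.7 CPM per kb in the co-cultured libraries, and the red segment of CA9 grew from 2.64 to 7.11 CPM per kb in control to 17.2 and 11.1 CPM per kb.

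Across the 5 libraries, the genes whose centered log2 CPM was closest to that of CA9, among 17090 genes with a mean of at least 1 CPM, were NEUROD4, FAM110B and AQP3. The root mean square difference was 0.118 for NEUROD4, 0.125 for FAM110B and 0.162 for AQP3 on the log2 scale. NEUROD4, a neuronal transcription factor, had 1.22, 1.88 and 3.12 CPM in control against 9.18 and 5.42 CPM after co-culture. AQP3, a channel for water and glycerol, had 0.425, 0.553 and 0.973 CPM in control against 2.24 and 1.45 CPM after co-culture. FAM110B had 0.372, 0.442 and 0.819 CPM in control against 2.13 and 1.32 CPM after co-culture. The control levels of AQP3 and FAM110B rest on few reads, since 3 counts correspond to 0.154 to 0.166 CPM in the control libraries. NEUROD4, FAM110B and AQP3 were chosen for their likeness to CA9, so their levels are a description.

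The rest of the acid-base machinery was described from a list of 87 genes, of which 55 were tested. In this list 21 genes were called higher (38.2%) and 5 lower (9.09%), beside 18.4% and 15.0% of all genes, and 29 were not called. The median log2FC was 0.26 against -0.03 for all genes tested. The list was chosen with earlier results of these data known, so these shares are a description. Leaving out each library gave from 6 to 28 higher and from 0 to 6 lower, with the smallest numbers without co-cultured replicate 1. The calls over all genes, 3750 higher and 3059 lower, were 3076 and 3929 under upper-quartile normalization, where 16 genes of the list were higher and 5 lower.

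SLC16A3, the lactate and proton exporter MCT4, showed the largest change of the list. It had 35.0, 43.5 and 53.1 CPM in control against 200.3 and 137.1 CPM after co-culture (log2FC 1.94, SE 0.18, adjusted p = 0.000132 with edgeR). Of the 4 tested genes of monocarboxylate transport 3 rose (75%), SLC16A3, SLC16A7 and BSG, the last being a chaperone of SLC16A3. Of all genes tested, 18.4% were called higher. SLC16A1 had 0 counts in every library. SLC16A7, BSG and SLC16A1 are named after their values were seen. Of 14 sodium-proton exchangers and partners tested, 5 rose and 1 fell (35.7% and 7.14%, beside 18.4% and 15.0% of all genes). The one that fell was SLC9B2 (log2FC -0.55, named after its values were seen).

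Among 10 other genes of the SLC4 and SLC26 families tested, 3 rose and 1 fell (30% and 10%, beside 18.4% and 15.0% of all genes). SLC4A10, a sodium-dependent bicarbonate transporter of neurons, had 7.50, 6.75 and 8.04 CPM in control against 14.6 and 18.2 CPM after co-culture (log2FC 1.14, adjusted p = 0.000621). SLC4A11 fell, with a log2FC of -0.67 (named after its values were seen). Of the 9 other carbonic anhydrases, CA5B alone was tested. CA5B had 23.4, 24.5 and 24.0 CPM in control against 30.6 and 27.9 CPM after co-culture (log2FC 0.29, adjusted p = 0.0459). The call of CA5B was lost under 11 of its 13 alternatives, with an adjusted p of 0.0812 from DESeq2 and 0.126 under upper-quartile normalization. Leaving out control replicate 3 and using 4 libraries without a block are the same fit, counted under both names. Without co-cultured replicate 1 the log2FC of CA5B was 0.23.

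Of 20 subunits of the V-ATPase, the proton pump of lysosomes and secretory granules, 8 rose (40%) and 3 fell (15%). These shares stand beside 18.4% and 15.0% of all genes tested, and the median log2FC of the subunits was 0.21. The largest change was that of ATP6V1B1, an isoform known from acid-secreting kidney cells, which had 20, 24 and 16 counts in control against 5 and 8 after co-culture (log2FC -1.43, adjusted p = 0.0410). The call of ATP6V1B1 was lost with DESeq2 (adjusted p = 0.104) and without control replicate 2 (0.105), co-cultured replicate 1 (log2FC -0.996, 0.293) or co-cultured replicate 2 (0.0852). Among 6 proton channels, gastric-type pump subunits and proton-sensing receptors tested, 1 was called higher, ATP4A (16.7%, beside 18.4% of all genes). ATP4A, the catalytic subunit of the gastric proton pump, had 8, 8 and 16 counts in control against 38 and 20 after co-culture (log2FC 1.59, adjusted p = 0.0153), and without co-cultured replicate 1 its adjusted p was 0.193.

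**Figure D5:**
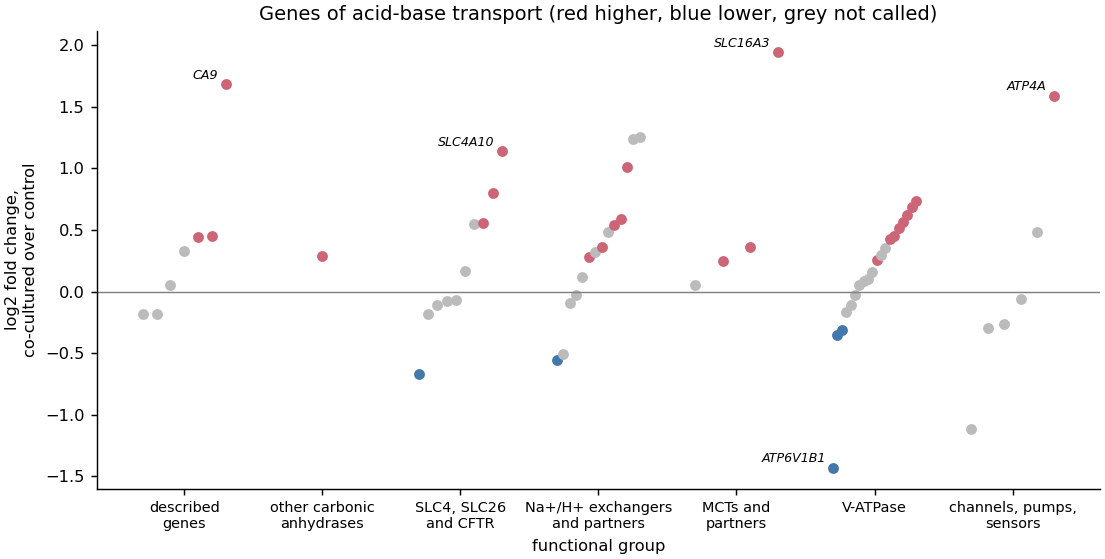
Each point is the log2 fold change of a tested gene, by functional group, in red where called higher, blue where called lower and grey where not called. The 8 genes described first are at the left without CA2, and SLC16A3 at 1.94, CA9 at 1.68 and ATP4A at 1.59 are the highest points.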

How the data were processed

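The authors deposited raw gene counts for each of the 5 libraries, as STAR writes them with its gene counting option. The submitters' processing notes name CASAVA 1.8, STAR 2.6.1b, DESeq2 and GRCh38, and the gene identifiers are those of GENCODE release 29. From the deposited table of the authors' comparison (group means, fold changes, p-values), the gene symbols alone were used. Counts of the directional strand, which held 92.3% to 93.1% of stranded reads, were filtered with filterByExpr, normalized by TMM and tested with edgeR 4.0.16 in R 4.3.3. Standard errors are the log2 fold change over the square root of F. Exon lengths are unions of GENCODE exons, and promoters are from RefSeq (GRCh38.p14).

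The members and gene lists were chosen with earlier results of these data known. Genes named outside the members were those of each list with an adjusted p under 0.05 and an absolute log2 fold change above 1 (at most 5, or the 2 with the smallest p where none did), and the 3 genes closest in pattern to CA9. Other genes named are marked as named after their values were seen, or bear on CA9 (ARHGEF39), on a marker list or on the strand check. A gene that the rule chose is not reported here. With 3 against 2 libraries the smallest p of an exact permutation test is 0.1. Intervals and floors cover the spread or the counting error of these libraries only. The fit was tested on simulated data. Of 100 genes changed by 1 on the log2 scale 66 were called, and of 100 changed by 2, 94. Of the 20360 genes simulated, 20 unchanged ones were also called. Only 200 genes were changed there, none of low mean count, a smaller share than was called in the data. The numbers called depend on that share, so they do not give the power of the fit on these data. Alternatives were DESeq2 1.42.0, other normalizations, filters and strand settings, a replicate block and each library left out. Plots were drawn with matplotlib 3.10.9.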

Additional observations from a re-analysis of the deposited data

Results flagged for a closer look

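The share of unmapped reads, which enters no comparison of genes, was 16.8% in co-cultured replicate 1 and 15.9% in co-cultured replicate 2, above the 8.13% to 8.48% of the control libraries. It moved with the group for every gene described here, and its part in the levels of CA9, CA8 and SLC4A7 was not tested.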

How the results depend on the processing

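With each library left out in turn, the log2 fold change of CA9 ran from 1.34 to 2.23, of CA8 from 0.36 to 0.62, of SLC4A7 from 0.39 to 0.52, of CA13 from 0.10 to 0.49, of CA12 from -0.31 to -0.02, of SLC4A2 from 0.02 to 0.11 and of CA11 from -0.59 to 0.22. The members called higher then numbered from 0 to 3 and lower 0 throughout, the other genes of acid-base transport from 6 to 28 higher and from 0 to 6 lower, and all genes from 1749 to 5295 higher and from 985 to 4602 lower. A co-cultured group of 1 library was assumed to vary like the controls. CA9 and SLC4A7 kept their direction and their call under the other 8 settings. CA8 did so except in 4 libraries without a block, at 0.37 (adjusted p = 0.0900 with edgeR), which is the same fit as leaving out control replicate 3. SLC4A2 was -0.021 under upper-quartile normalization. CA11 was 0.33 with the replicate block and 0.22 without it in the same 4 libraries, and DESeq2 called 3 of the other genes lower instead of 5. The causes were not tested. The difference between replicates 1 and 2 in control did not follow that in co-culture (r = -0.101 over 20360 genes, 2 pairs). With 2 pairs this cannot tell whether same-numbered libraries were prepared together. With the block over the 4 libraries numbered 1 and 2, 2987 genes were called higher and 2137 lower, against 2941 and 2194 without it. The block restored the call of CA8, at 0.39 (adjusted p = 0.0279). CA12 rests on 12 to 18 counts per library.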
